A study of Homo sapiens with 5 samples.

Results

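The genes MCM2, MCM3, MCM4, MCM5, MCM6, MCM7, PCNA, RRM1, RRM2 and TYMS encode parts of the machinery that unwinds DNA for replication and of the pathway that supplies its building blocks. They were taken by name from a table of reads at mRNA 3′ ends, and are 10 of the 31173 genes listed there, of which 26270 had a read. The cells were HEK293T, a transformed human embryonic kidney line that divides fast in culture and expresses every gene of the set. The libraries came from 2 lines that lack CFIm68 (the product of CPSF6), 2 lines that lack CFIm59 (the product of CPSF7) and 1 wild-type control. Every knockout was made with CRISPR/Cas9 in HEK293T, all cells grew in DMEM with serum, and where each gene was edited is not stated in the labels. The labels call the lines of a genotype different cell lines, so the spread between them is a spread between lines, and the control has no replicate of its own.

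CFIm59 and CFIm68 are the alternative large subunits of cleavage factor Im, which reads UGUA in the RNA through its small subunit CFIm25 and helps to choose where an mRNA is cut and given its poly(A) tail. A gene with several poly(A) sites in its last exon makes mRNAs with the same protein and 3′ untranslated regions of different length. The site nearer the coding region is called proximal and the other distal. MCM2 to MCM7 form a ring of 6 different proteins that is loaded onto origins before S phase and becomes the motor of the replicative helicase. PCNA is the sliding clamp that tethers DNA polymerases and many repair factors to DNA. RRM1 and RRM2 are the large and the small subunit of ribonucleotide reductase, which turns ribonucleotides into deoxyribonucleotides, and TYMS makes the thymidylate that only DNA uses. Transcription of most of these genes is raised by E2F factors as cells enter S phase.

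The bases at the poly(A) signals of RRM2, MCM5, MCM6 and MCM7, 4 of the genes whose site use differed in a comparison below, are given first. MCM4, which also differed, was not included. A poly(A) signal, AAUAAA or a variant such as AUUAAA, lies a short way upstream of the cut and is bound by the cleavage complex. Each line is 30 bases of the annotated mRNA, read 5′ to 3′ from GENCODE transcripts and written with T. The signal matched to the site is in capitals. The transcripts come from a GRCh38 annotation and no coordinate was carried over. Sites and signals were matched by spacing alone.
RRM2 proximal: caaacaAATAAAcattgtttgtactcacaa
RRM2 distal: gattaaAATAAAactgttcttatgtcagtt
MCM5 proximal: gttaatAATAAAgccacggtgtgttcaggt
MCM6 proximal: catcaaAATAAAataacttgttctgaagtt
MCM6 distal: tttaaaAATAAAtggcaaacattaaaaaca
MCM7 proximal: tttgctAATAAAagtgtttgtagattgtca
MCM7 distal: acttccATTAAAacagggttttgtgcgttt
In RRM2 the signals lie 1617 nt apart on the transcript and the deposited sites 1615 nt apart. In MCM6 the spacing is 813 nt between the marked signals and 817 nt between sites. The distal lines of RRM2 and MCM6 each also hold an ATTAAA other than the marked signal. That of MCM6 lies nearer the transcript end, 11 nt before it. In MCM7 both spacings are 48 nt, and there the proximal signal is AATAAA and the distal one ATTAAA. MCM5 has AATAAA at its proximal end, and neither hexamer occurs in the last 50 bases of the transcript that ends at its distal site, where the nearest lies 175 nt before the end. The motif TGTA was counted on the sense strand in the 100 bases upstream of each signal, so copies between signal and cut were left out. It occurs 0 times before both RRM2 signals, 1 time before the MCM5 signal, 1 time before the proximal and 3 times before the distal signal of MCM6, and 0 and 1 times before those of MCM7. The printed proximal lines of RRM2 and MCM7 each hold 1 TGTA after the signal. That of MCM7 lies in the window counted for its distal signal, so its values of 0 and 1 depend on the window. In 2 genes whose pairs did not pass, TGTA occurs 3 and 0 times before the proximal and distal signals of PCNA and 1 time before each of those of TYMS. Of 13729 protein-coding genes with AATAAA in the last 50 bases of a transcript, 55.0% hold at least 1 TGTA in such a window, 21.8% at least 2 and 6.82% at least 3. The windows with 3 copies are thus 1 in MCM6, at its distal end, and 1 in PCNA, at its proximal end.

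The libraries held 2727728 and 2078376 reads for CFIm68 KO lines 1 and 2, 1673687 and 2585923 for CFIm59 KO lines 1 and 2, and 2924266 for the control. CPSF6 averaged 46.8 ± 1.58 CPM (read counts scaled to a common library total with TMM factors) in the CFIm68 KO lines, 142 ± 1.00 CPM in the CFIm59 KO lines and 119.9 CPM in the control (SD, n = 2 lines per knockout). It was thus lowest in the lines made to lack it (log2 -1.35 against control, Benjamini-Hochberg adjusted p = 0.000512 in edgeR's quasi-likelihood test, used for every adjusted p below unless another tool is named). CPSF7 averaged 62.0 ± 9.15 CPM in the CFIm59 KO lines and 59.8 CPM in the control, so 3′ reads do not check that label, and any CFIm59 KO result below rests on the label alone. In the CFIm68 KO lines CPSF7 was higher, at 166 ± 54.2 CPM (log2 1.47 against control, adjusted p = 0.000925). DESeq2 gave neither CPSF6 nor CPSF7 an adjusted p in the CFIm68 KO against control, so it called neither. Kidney progenitor and neuronal markers that HEK293T cells are known for had reads in 8 of 8 genes, and their summed level was 868 and 695 CPM in the CFIm68 KO lines, 898 and 891 CPM in the CFIm59 KO lines and 1420 CPM in the control. Markers of blood, fibroblasts, liver and endothelium had reads in 6 of 9 genes. COL1A1 and ALB held the most, and HBB, COL1A2 and PECAM1 stood at 0. The 9 genes summed to 9.73 and 9.32 CPM, 9.61 and 16.2 CPM, and 38.4 CPM in the same order of groups. The control stands apart in both sums, and their part in the results below was not tested.

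The 10 genes had 149 listings, which are 144 distinct sites after repeats are set aside. Reads fell on 120 of them, and the 31 sites with at least 20 reads held 98.8% of the genes' 25353 reads. They comprised 27 sites of the last exon class, 2 of the intron class and 2 of the upstream exon class. Last exon sites took 98.9% and 99.1% of the genes' reads in the CFIm68 KO lines, 99.1% and 99.0% in the CFIm59 KO lines and 98.8% in the control. Over all nuclear genes that share was lower, from 88.0% in CFIm59 KO line 2 to 91.2% in CFIm68 KO line 2. So the genes ended almost wholly in their last exons in every library, and intron sites, which would truncate the protein, held 160 reads in all. Pseudogene copies of the members drew 1 read, and 6 member sites are also listed under another gene, where they hold 0 reads against 91 under the members.

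Because reads mark mRNA ends, gene sums do not grow with transcript length, and levels are set side by side on that basis. Reads were amplified without described molecular identifiers, and differences in amplification between genes were not tested. MCM7 and PCNA were the most abundant in the CFIm68 KO lines and the control, MCM7 led in the CFIm59 KO lines, and MCM2 was the lowest in all 5 libraries. MCM7 stood at 395 and 463 CPM in the CFIm68 KO lines, 587 and 575 CPM in the CFIm59 KO lines and 381 CPM in the control. PCNA stood at 491 and 351 CPM, 261 and 213 CPM, and 385 CPM in those groups. The order in the control ran PCNA, MCM7, RRM2, RRM1, MCM3, MCM6, TYMS, MCM4, MCM5 and MCM2. In the control the neighbours PCNA and MCM7 differed by less than the SD of either between the CFIm68 KO lines, as did RRM1 from both RRM2 and MCM3, MCM6 from TYMS, and MCM4 from MCM5. In bulk libraries fewer cells in S phase and less RNA per cell cannot be told apart.

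**Figure D1:**
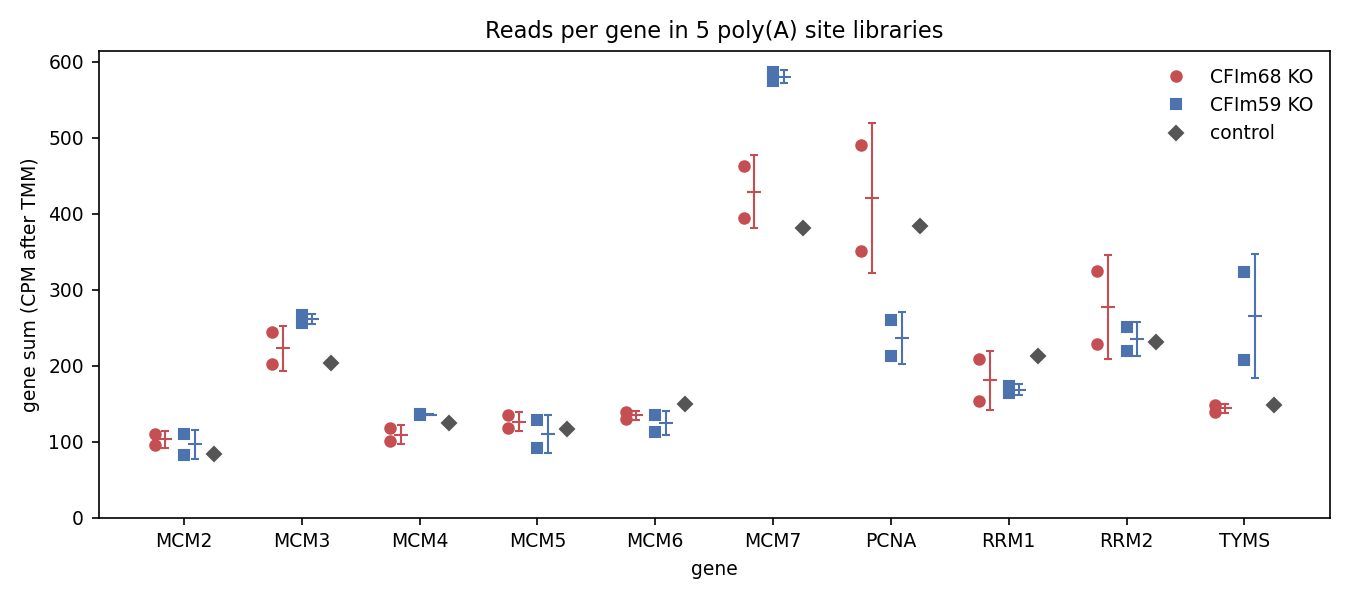
Gene sums (y axis, CPM after TMM scaling) of the 10 genes (x axis) in the CFIm68 KO lines (circles), CFIm59 KO lines (squares) and the control (diamond). Bars are means ± SD of 2 lines. MCM7 at 587 and 575 CPM, PCNA at 261 and 213 CPM and TYMS at 324 and 208 CPM in the CFIm59 KO lines lie apart from the control. In the CFIm68 KO lines PCNA (491 and 351 CPM, control 385 CPM) and RRM2 (229 and 325 CPM, control 231 CPM) lie on both sides of it.

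The first comparison asked whether loss of CFIm68 changes how much mRNA these genes make. No difference in level was detected for any of them. Of the 10 genes, 0 passed the test in the CFIm68 KO lines against the control, in a comparison that called 3.61% of 14636 genes, 1.59% higher and 2.03% lower. None of them had an unadjusted p under 0.05 either, and DESeq2, which gave 8 of the 10 an adjusted p, called 0 with 0 unadjusted. The log2 changes ran from -0.23 (SE 0.24) in RRM1 to 0.29 (SE 0.26) in MCM2, each about as large as its SE. The median over the 10 genes was 0.12, against 0.02 over all genes tested.

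The CFIm59 KO lines differed more from the control. TYMS rose and PCNA fell, 2 of the 10 genes in a comparison that called 13.9% of all genes, 6.98% higher and 6.87% lower, and MCM7 stood higher in both lines without passing. TYMS was at 324 and 208 CPM in the CFIm59 KO lines, against 148 CPM in the control, and at 139.7 and 148 CPM in the CFIm68 KO lines. Both CFIm59 KO lines lay above every other library, though they differed much from each other. The change was a 1.79-fold increase (log2 0.84, SE 0.26, adjusted p = 0.024). The call ended without CFIm59 KO line 1 (log2 0.50, adjusted p = 0.353) and with DESeq2 (adjusted p = 0.115), in a range over the alternatives of 0.00448 to 0.353.

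PCNA was at 261 and 213 CPM in the CFIm59 KO lines, against 385 CPM in the control, a ratio of 0.615 (log2 -0.70, SE 0.24, adjusted p = 0.0417). Both lines lay below every other library. The call ended without CFIm59 KO line 1 (adjusted p = 0.0674), without line 2 (0.283) and with DESeq2 (0.178), in a range over the alternatives of 0.0123 to 0.283. PCNA lies on chromosome 20, where the 62 tested genes within 5 Mb had a median log2 change of -0.49 in the same comparison, against -0.08 over the chromosome. The part of that local shift in the PCNA value was not tested. Near TYMS on chromosome 18 the median of 22 genes was 0.24.

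MCM7 gave log2 0.61 (SE 0.24, adjusted p = 0.0854) in the CFIm59 KO lines against the control, and its 103 neighbours a median of -0.04. It passed without CFIm68 KO line 1 (adjusted p = 0.047), without CFIm68 KO line 2 (0.0482) and with last exon sites alone (0.0424). The other MCM genes gave log2 values from -0.28 in MCM6 to 0.36 in MCM3, none past the threshold. MCM5 was at 128 and 92.4 CPM in the CFIm59 KO lines, against 117 CPM in the control. It lies on chromosome 22, where the median over 359 tested genes was -0.39. RRM2 was at 251 and 219 CPM in the CFIm59 KO lines and 231 CPM in the control, and RRM1 at 174 and 164 CPM, against 213 CPM, and neither passed.

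Set against each other, the knockouts gave the clearest contrasts in level, again in PCNA and TYMS. PCNA was higher and TYMS lower in the CFIm68 KO lines, 2 of 10 genes, where 19.7% of all genes were called, 9.46% higher and 10.3% lower. The members' share is close to that background. PCNA averaged 421 ± 98.9 CPM in the CFIm68 KO lines and 237 ± 34.0 CPM in the CFIm59 KO lines (SD, n = 2 each; log2 0.84, SE 0.20, adjusted p = 0.00197). TYMS averaged 144 ± 6.06 CPM in the CFIm68 KO lines and 266 ± 81.8 CPM in the CFIm59 KO lines (log2 -0.88, SE 0.21, adjusted p = 0.00154). In neither gene did the lines of the 2 knockouts overlap. The PCNA call ended without CFIm59 KO line 2 (adjusted p = 0.092) or CFIm68 KO line 1 (0.0649), and the TYMS call without CFIm59 KO line 1 (0.169). Neighbours of PCNA within 5 Mb had a median of 0.73 here, and those of TYMS -0.06. MCM7 gave log2 -0.44 (SE 0.19, adjusted p = 0.105).

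The 6 helicase subunits act as a ring with 1 copy of each, but the reads at their mRNA ends were far from equal. The sum over MCM2 to MCM7 was 1051 and 1202 CPM in the CFIm68 KO lines, 1363 and 1256 CPM in the CFIm59 KO lines and 1061 CPM in the control. MCM7 alone made up 37.6% and 38.5% of that sum in the CFIm68 KO lines, 43.0% and 45.7% in the CFIm59 KO lines and 35.9% in the control. Its share was thus highest in the CFIm59 KO lines, with no overlap between groups, though no test was run on it. The most abundant subunit exceeded the least abundant by 4.15 and 4.17 times, 5.31 and 6.94 times, and 4.52 times in the same groups. For ribonucleotide reductase, the ratio of RRM1 to RRM2 was 0.909 and 0.472 in the CFIm68 KO lines, 0.691 and 0.747 in the CFIm59 KO lines and 0.922 in the control, and the CFIm68 KO lines lay on both sides of the CFIm59 KO lines.

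Site use was then compared, which asks whether the same mRNAs ended elsewhere. For each gene the 2 sites with most reads were taken, and a positive log2 value means relatively more proximal reads. Of the 10 genes 9 could be tested, among 5869 genes. MCM2 has in effect 1 end, at 127341276 on chromosome 3 (hg19, as all positions below), which took 1131 of its 1132 reads.

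**Figure D2:**
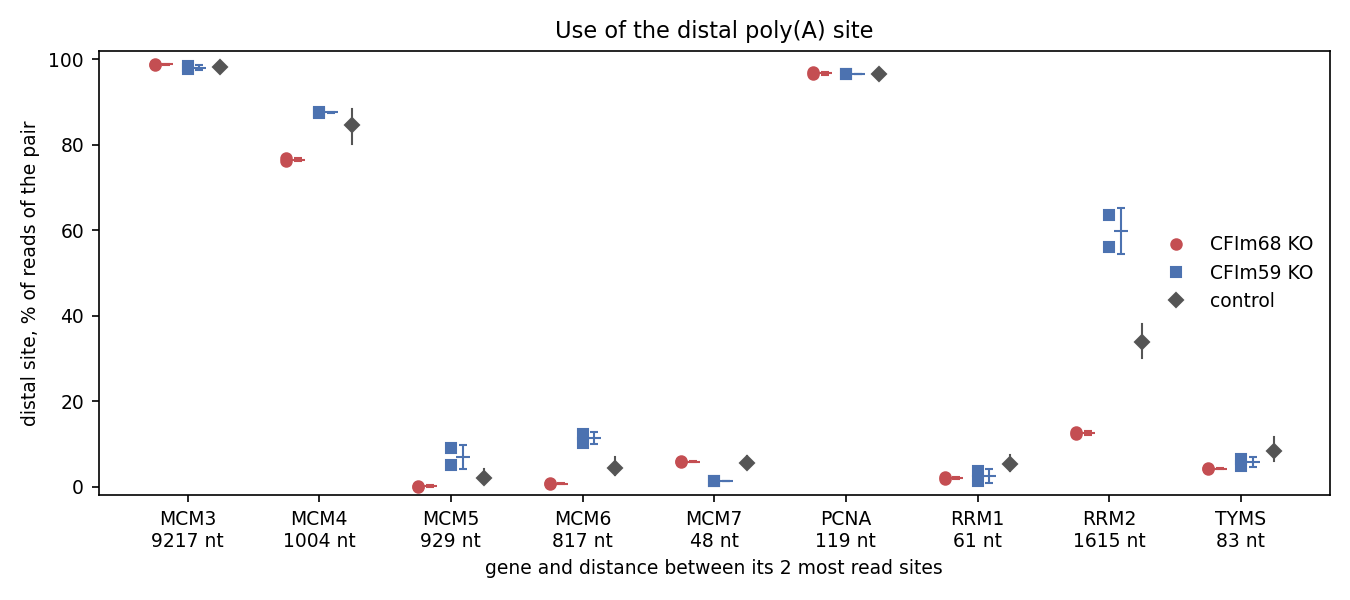
Share of the distal site among the reads of the 2 most read sites (y axis, %) for 9 genes (x axis, with the distance between the sites). Points are libraries, bars beside them means ± SD of 2 lines, and the line on the control its Wilson 95% interval. RRM2 spans from 12.3% in CFIm68 KO line 1 to 63.6% in CFIm59 KO line 1, and MCM3 and PCNA stay near the top in every library.

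In the CFIm68 KO lines RRM2, MCM6 and MCM5 shifted to their proximal sites, 3 of 9 genes, and 0 shifted to distal. The comparison called 28.4% of all pairs, 25.3% to proximal and 3.14% to distal, so that share lies near the background. The median over the 9 genes was 1.06, against 0.61 over all pairs. In the CFIm59 KO lines RRM2 shifted to distal and MCM7 to proximal, 2 of 9 genes where 6.41% of all pairs were called, 5.38% to distal and 1.02% to proximal. Between the knockouts 5 of 9 passed, where 46.9% of all pairs did, 40.7% to proximal and 6.2% to distal, a share again near the background. RRM2, MCM5, MCM6 and MCM4 were more proximal in the CFIm68 KO lines and MCM7 more distal. The comparisons with the control share its 1 library.

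RRM2 showed the widest range. It lies on the plus strand of chromosome 2 with last exon ends at 10269925 and 10271540, whose signals are printed above. The proximal site held 465 and 526 reads in the CFIm68 KO lines, 116 and 187 in the CFIm59 KO lines and 338 in the control. The distal site held 65 and 78 reads in the CFIm68 KO lines, 203 and 239 in the CFIm59 KO lines and 174 in the control. Distal use was thus 12.3% and 12.9% in the CFIm68 KO lines, 63.6% and 56.1% in the CFIm59 KO lines and 34.0% in the control (95% interval 30.01 to 38.2). The control lay between the knockouts and no groups overlapped. The shift was to proximal in the CFIm68 KO lines (log2 1.84, SE 0.38, adjusted p = 0.000109) and to distal in the CFIm59 KO lines (log2 -1.53, SE 0.38, adjusted p = 0.00634). Between the knockouts the difference was 47.3 percentage points (log2 3.36, SE 0.32, adjusted p = 5.88e-14), and it passed under all 11 alternatives run. The call against the control in the CFIm59 KO lines ended without CFIm59 KO line 1 (adjusted p = 0.103), with DESeq2 (0.213), with diffSpliceDGE over all sites (0.324) and with the outermost pair of sites (0.936). That in the CFIm68 KO lines ended with the outermost sites of the gene alone (0.175), where an intron site replaces the proximal one.

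RRM2 used 6 sites of 20 or more reads, more than any other member, and those outside the pair did not all move with it. A site at 10271351, a little short of the distal end, took 1.97% and 3.0% of the gene's reads in the CFIm68 KO lines, 7.89% and 6.24% in the CFIm59 KO lines and 3.74% in the control. It was lower in the CFIm68 than in the CFIm59 KO lines (log2 -1.55, adjusted p = 0.00063). A site at 10269655, upstream of the proximal end, took 2.42% and 0.955% in the CFIm68 KO lines, 0.239% and 0.378% in the CFIm59 KO lines and 1.14% in the control. It moved the other way between the knockouts (log2 2.32, adjusted p = 0.011), a call on few reads that ended without CFIm59 KO line 1 (0.115), CFIm59 KO line 2 (0.0967) or CFIm68 KO line 1 (0.218). A site at 10270092 kept 8.32% to 12.4% of reads in every library, and the intron site at 10265803 kept 0.813% to 1.32%, and neither passed in any comparison. Over all last exon reads of RRM2, the mean end lay 215 and 266 nt downstream of the proximal site in the CFIm68 KO lines, 1007 and 898 nt in the CFIm59 KO lines and 586 nt in the control. Those averages sort the genotypes in the same order as the pair. The level of RRM2 did not pass in any comparison, with log2 0.24 (SE 0.20, adjusted p = 0.445) between the knockouts.

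MCM6 and MCM5 are subunits of the helicase ring that end mostly at 1 site with a minor distal end. MCM6, on the minus strand of chromosome 2, has its proximal end at 136598014 and its distal end at 136597197. The proximal end held 385 and 286 reads in the CFIm68 KO lines, 190 and 243 in the CFIm59 KO lines and 364 in the control, and the distal end 3 and 2, 27 and 28, and 17. Distal use was 0.773% and 0.694% in the CFIm68 KO lines, 12.4% and 10.3% in the CFIm59 KO lines and 4.46% in the control (95% interval 2.80 to 7.03). The groups did not overlap. The ratio shifted to proximal in the CFIm68 KO lines against the control (log2 2.59, SE 0.72, adjusted p = 0.00396) and against the CFIm59 KO lines (log2 4.03, SE 0.57, adjusted p = 1.43e-08). In the CFIm59 KO lines against the control it missed the threshold (log2 -1.44, SE 0.51, adjusted p = 0.0764) and passed without CFIm68 KO line 1 (0.0439) or 2 (0.0446) and with the outermost ends (0.0292). The call against the control in the CFIm68 KO lines ended with the outermost pair of sites (0.373), which pairs the distal end with an intron site at 136614111 that held 7 and 4, 3 and 2, and 14 reads. Pooled over lines, the distal share in the CFIm68 KO was 0.166 times that in the control (exact 95% counting interval 0.0478 to 0.468).

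MCM5, on the plus strand of chromosome 22, ended at 35820494 with 338 and 303 reads in the CFIm68 KO lines, 193 and 209 in the CFIm59 KO lines and 301 in the control. Its distal end at 35821423 held 1 and 0 reads in the CFIm68 KO lines, 19 and 11 in the CFIm59 KO lines and 6 in the control. The 0 of 303 reads in CFIm68 KO line 2 allow distal use as high as 0.99%, taking 3 reads as the limit. Distal use was 8.96% and 5.00% in the CFIm59 KO lines and 1.95% in the control (95% interval 0.899 to 4.20). The ratio was more proximal in the CFIm68 KO lines than in the control (fitted log2 3.39, SE 1.21, adjusted p = 0.0268) and than in the CFIm59 KO lines (5.27, SE 0.85, adjusted p = 3.26e-07). With 1 distal read in the CFIm68 KO lines these fitted values are loose. The pooled distal share was 0.0797 times that in the control (exact 95% counting interval 0.00173 to 0.657) and 0.0224 times that in the CFIm59 KO (0.00055 to 0.135). The call against the control ended without CFIm68 KO line 2 (0.142), with DESeq2 (0.139) and with no minimum beyond 1 read (0.131). In the CFIm59 KO lines against the control MCM5 gave log2 -1.88 (SE 0.68, adjusted p = 0.0852).

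**Figure D3:**
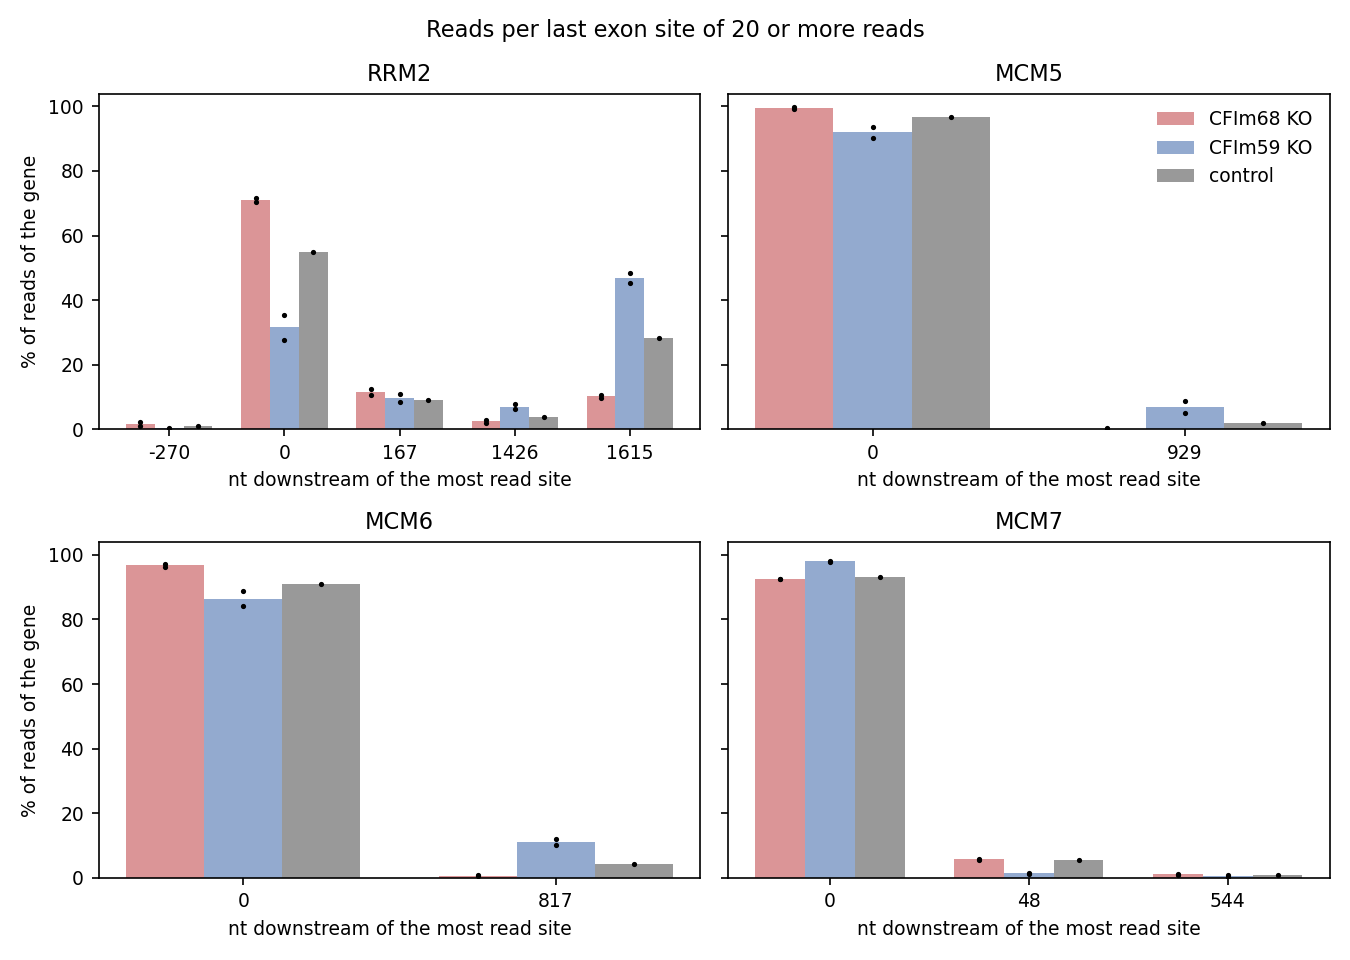
Share of each gene's reads (y axis, %) at its last exon sites of 20 or more reads, ordered by distance from the most read site (x axis, nt, positive downstream), for RRM2, MCM5, MCM6 and MCM7. Bars are means of the CFIm68 KO lines, the CFIm59 KO lines and the control, and dots are libraries. The far ends of RRM2, MCM5 and MCM6 are highest in the CFIm59 KO lines, and the near neighbour 48 nt downstream in MCM7 is lowest there.

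MCM4, on the plus strand of chromosome 8, used its distal site for most reads, as MCM3 and PCNA also did. Its sites at 48889482 and 48890486 lie 1004 nt apart. The proximal site held 63 and 56 reads in the CFIm68 KO lines, 26 and 35 in the CFIm59 KO lines and 45 in the control, and the distal site 202 and 186, 182 and 250, and 250. Distal use was 76.2% and 76.9% in the CFIm68 KO lines, 87.5% and 87.7% in the CFIm59 KO lines and 84.7% in the control (95% interval 80.2 to 88.4). The CFIm68 KO lines were lowest, and the CFIm59 KO lines lay within the control's interval. The knockouts differed (log2 1.11, SE 0.36, adjusted p = 0.00813), a call that ended without CFIm59 KO line 2 (0.0756) and with DESeq2 (0.0848). Against the control neither passed, with log2 0.77 (SE 0.42, adjusted p = 0.184) in the CFIm68 KO lines and -0.35 (SE 0.45, adjusted p = 0.724) in the CFIm59 KO lines. Further ends at 48889546 and 48890719 took 2.41% and 3.38%, and 2.41% and 3.01%, of reads in the CFIm68 KO lines. In the CFIm59 KO lines they took 1.33% and 0.912%, and 3.56% and 7.90%, and in the control 1.21% and 6.65%. The last of these missed the threshold between the knockouts (log2 -1.19, adjusted p = 0.0538). With the outermost pair of sites, MCM4 passed to proximal in the CFIm68 KO lines against the control (log2 1.94, adjusted p = 0.0158).

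MCM7 moved the other way from MCM4, MCM5 and MCM6 between the knockouts. On the minus strand of chromosome 7 its main end at 99690403 is followed 48 nt further by a minor one at 99690355. The minor end held 67 and 59 reads in the CFIm68 KO lines, 13 and 19 in the CFIm59 KO lines and 55 in the control, beside 1051 and 965, 955 and 1362, and 944 at the main end. Its share of the pair was 5.99% and 5.76% in the CFIm68 KO lines, 1.34% and 1.38% in the CFIm59 KO lines and 5.51% in the control (95% interval 4.25 to 7.10). The CFIm59 KO lines stood alone and the CFIm68 KO lines lay within the control's interval. The shift to the proximal end passed in the CFIm59 KO lines against the control (log2 2.07, SE 0.46, adjusted p = 0.00276), and the knockouts differed (log2 -2.17, SE 0.39, adjusted p = 2.78e-06). In the CFIm68 KO lines against the control the value was -0.10 (SE 0.41, adjusted p = 0.893). The CFIm59 KO call against the control ended with DESeq2 (0.0797) and with the outermost pair of sites (0.577), which pairs the main end with one at 99689859 and also ended the call between the knockouts (0.0645). That end held 11 and 12, 8 and 2, and 8 reads and is also listed under the microRNA genes MIR25, MIR93 and MIR106B, which lie in an MCM7 intron.

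RRM1 lies on the plus strand of chromosome 11 and ended at 4160100, with a minor end 61 nt further at 4160161. The minor end held 13 and 6 reads in the CFIm68 KO lines, 4 and 14 in the CFIm59 KO lines and 28 in the control, or 2.27% and 1.82%, 1.45% and 3.65%, and 5.28% of the pair (95% interval in the control 3.68 to 7.53). All knockout lines lay below the control. The shift just missed the threshold in the CFIm68 KO lines (log2 1.37, SE 0.55, adjusted p = 0.0508), where it passed with last exon pairs alone (0.0383), and did not pass in the CFIm59 KO lines (log2 1.01, SE 0.55, adjusted p = 0.301), where diffSpliceDGE called the gene (0.00916), as it did between the knockouts (0.0101). An end about 12 kb upstream, at 4148172, which the table classes as last exon, held 10 and 6 reads in the CFIm68 KO lines, 1 and 0 in the CFIm59 KO lines and 17 in the control. Its share of RRM1 reads fell in the CFIm59 KO lines against the control (log2 -4.12, adjusted p = 0.00536). The pooled share was 0.0488 times that in the control (exact 95% counting interval 0.00117 to 0.311). That call ended without CFIm59 KO line 1 (0.0928) or line 2 (0.295). Beside it, an upstream exon site at 4148046 held 6 and 2, 4 and 1, and 10 reads, too few to be tested.

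The pairs of TYMS, PCNA and MCM3 did not pass in any comparison. TYMS, on the plus strand of chromosome 18, has ends at 673492 and 673575, 83 nt apart, and used the distal one for 4.17% and 4.29% of the pair in the CFIm68 KO lines, 4.90% and 6.52% in the CFIm59 KO lines and 8.46% in the control (95% interval 6.09 to 11.6). Its log2 values were 1.06 (SE 0.50, adjusted p = 0.105) and 0.62 (SE 0.47, adjusted p = 0.496) in the CFIm68 and CFIm59 KO lines against the control. With its outermost ends TYMS passed to proximal in the CFIm68 KO lines against the control (0.0118) and against the CFIm59 KO lines (0.0268). An end at 673198 took 3.48% and 2.4% of TYMS reads in the CFIm68 KO lines and 0.742% and 1.59% in the CFIm59 KO lines (log2 1.38, adjusted p = 0.0435). That call ended without CFIm59 KO line 1 (0.332), CFIm59 KO line 2 (0.0556) or CFIm68 KO line 1 (0.277). PCNA, on the minus strand of chromosome 20, has ends at 5095725 and 5095606 and used the distal one for 96.5% and 96.9%, 96.5% and 96.6%, and 96.5% of the pair. Within this pair PCNA was between 96.5% and 96.9% distal in all 5 libraries. A further PCNA end at 5094310, also listed under a Y_RNA, held 6 and 10, 3 and 4, and 21 reads. That was 0.425% and 1.26%, 0.691% and 0.780%, and 2.05% of the gene's reads. Its share was lower in both knockouts than in the control without passing (log2 -1.47, adjusted p = 0.0549, and log2 -1.46, 0.246). MCM3, on the minus strand of chromosome 6, ended at 52128818 in 96.7% and 96.9%, 97.5% and 96.0%, and 96.3% of its reads, with a minor upstream exon site at 52138035 that held 6 to 14 reads.

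**Figure D4:**
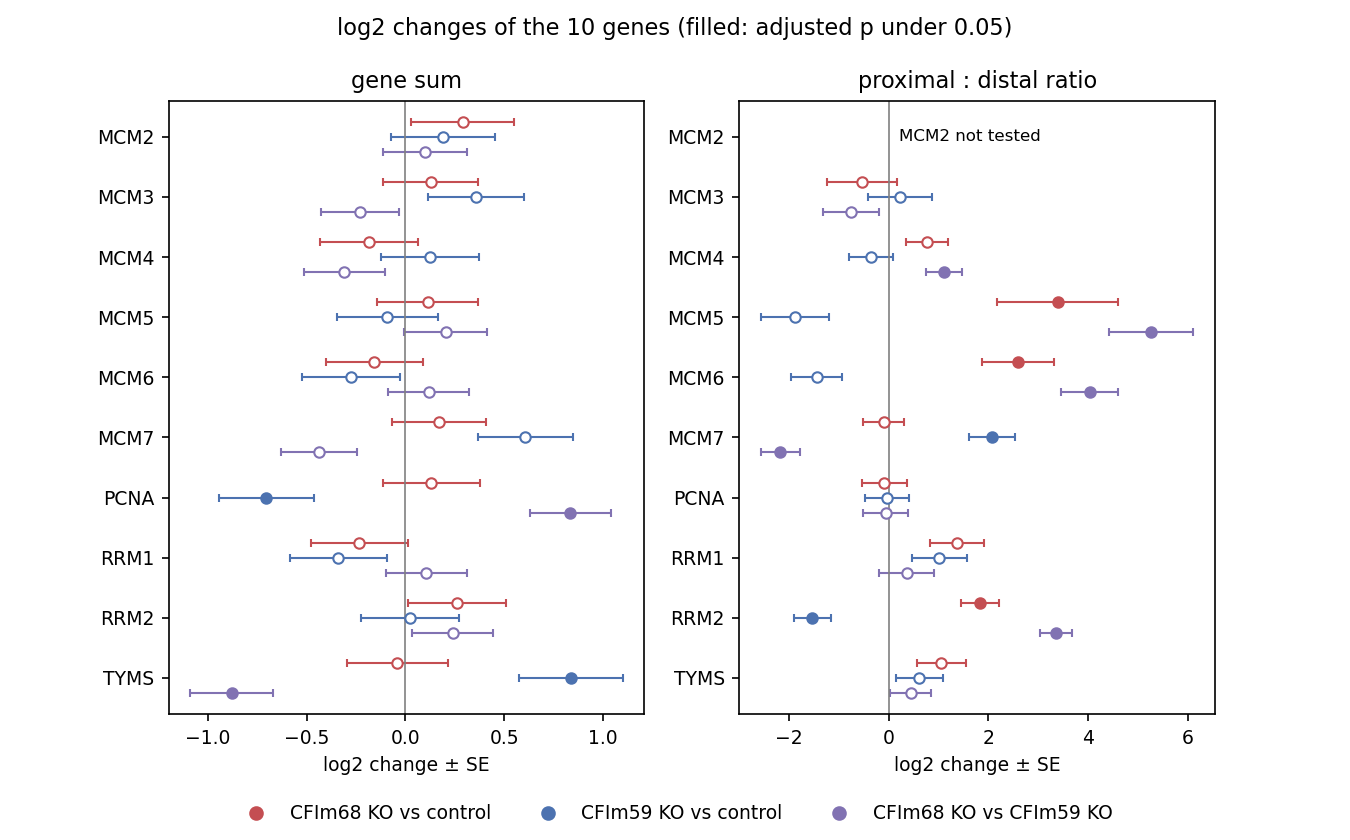
Log2 change ± SE (x axis) of the gene sum (left) and of the proximal to distal ratio (right, positive where more reads are proximal) for each gene (y axis) in the CFIm68 KO against control, the CFIm59 KO against control and the CFIm68 KO against the CFIm59 KO. Filled points passed an adjusted p of 0.05. Filled points in level are PCNA and TYMS alone, and those in site use are RRM2, MCM4, MCM5, MCM6 and MCM7.

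Testing each of the genes' sites against the rest of its gene gave 29 sites among 21518. In the CFIm68 KO lines against the control 6 of 29 passed, where 22.2% of all sites did, 10.4% higher in share and 11.9% lower, and they were the pair ends of RRM2, MCM5 and MCM6. The distal end of MCM5 (adjusted p = 0.0328) passed in 0 of its 4 alternatives, which each left out 1 knockout line (0.0541 to 0.163). In the CFIm59 KO lines 5 of 29 passed, where 3.85% of all sites did, 1.51% higher and 2.34% lower, namely both pair ends of RRM2 and of MCM7 and the upstream RRM1 end. Without CFIm59 KO line 1 or line 2 that count was 0. Between the knockouts 13 of 29 passed, where 41% of all sites did, 20.9% higher and 20.1% lower.

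The distance between the ends was set beside these shifts. RRM2, MCM4, MCM5 and MCM6, with 817 to 1615 nt between the ends, were all more proximal in the CFIm68 than in the CFIm59 KO lines. The widest pair, that of MCM3 at 9217 nt, had the opposite sign and did not pass (log2 -0.76, SE 0.56, adjusted p = 0.279). Its proximal site is of the upstream exon class, so that distance is not one between last exon ends. Among the pairs 48 to 119 nt apart, those of PCNA, TYMS and RRM1 did not pass between the knockouts, and MCM7 moved the other way. This is a description of 9 genes, and no test was made of it. Reads ending over 200 nt downstream of the most used site made up 12.7% and 15.3% of last exon reads of RRM2 in the CFIm68 KO lines, 60.0% and 54.4% in the CFIm59 KO lines and 34.3% in the control. In MCM4 that share was 2.85% and 3.09%, 6.22% and 10.2%, and 7.72%, and in TYMS and MCM2 it was 0 in every library.

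Other genes of the same processes were read from lists of replication and nucleotide supply factors. Of 50 other licensing and fork genes, 0 were higher and 2 lower in level in the CFIm68 KO lines against the control, and 2 higher and 7 lower in the CFIm59 KO lines, or 1 and 5 without CFIm59 KO line 1, 2 and 3 without line 2, and 0 and 1 with DESeq2. With every line kept these are 2 of 50 where 3.61% of all genes were called and 9 of 50 where 13.9% were, so neither total stands far from the background. By direction, 6.98% of all genes were higher and 6.87% lower in the CFIm59 KO lines. The 2 of 50 higher lay below the first share and the 7 of 50 lower above the second, which was not tested. RPA3, a subunit of the single-strand binding protein RPA, averaged 87.3 ± 23.0 CPM in the CFIm68 KO lines, 79.7 ± 12.6 CPM in the CFIm59 KO lines and 168 CPM in the control, and fell in both against the control (adjusted p = 0.0217 and 0.00238, the first lost without CFIm68 KO line 2 and with DESeq2). CDC45, which joins the MCM ring to form the active helicase, averaged 91.0 ± 11.3 CPM in the CFIm68 KO lines, 41.1 ± 4.60 CPM in the CFIm59 KO lines and 88.0 CPM in the control. It fell in the CFIm59 KO lines against the control (adjusted p = 0.00295, lost with DESeq2), and the knockouts differed (log2 1.14, adjusted p = 0.000152). MCM10, a helicase activation factor, averaged 86.4 ± 7.99 CPM in the CFIm68 KO lines and 37.4 ± 1.05 CPM in the CFIm59 KO lines (log2 1.21, adjusted p = 6.9e-05). LIG1, which seals Okazaki fragments, went the other way, at 30.2 ± 0.0334 CPM in the CFIm68 KO lines, 69.2 ± 1.11 CPM in the CFIm59 KO lines and 31.2 CPM in the control (log2 1.15 in the CFIm59 KO against control, adjusted p = 0.00418, lost with DESeq2). Chromosome medians in the CFIm59 KO against control ran from log2 -0.39 on chromosome 22 to 0.50 on chromosome 19. The part of such shifts in the levels of the list genes, here and below, was not tested.

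In site use 33 of these 50 genes were tested. In the CFIm68 KO lines 10 moved to proximal and 3 to distal against the control, and in the CFIm59 KO lines 0 and 3, with medians of 0.28 and -0.34 against 0.61 and -0.34 over all pairs. Over all pairs 25.3% were called to proximal and 3.14% to distal in the first comparison, and 1.02% and 5.38% in the second. MCMBP, which binds MCM proteins, used its distal site for 3.26 ± 2.58% of reads in the CFIm68 KO lines, 60.5 ± 13.0% in the CFIm59 KO lines and 32.7% in the control (adjusted p = 2.46e-07 and 0.00707 against the control, the second lost without CFIm59 KO line 2, with DESeq2 and with diffSpliceDGE). MCM10 stood at 2.81 ± 0.314%, 63.4 ± 15.2% and 49.3%, and moved in the CFIm68 KO lines (log2 5.01, adjusted p = 1.2e-10). WDHD1, a fork protein also called AND-1, stood at 0.595 ± 0.842%, 46.9 ± 13.3% and 27.7% (adjusted p = 8.99e-06 in the CFIm68 KO lines). TIPIN, a partner of TIMELESS at the fork, moved to distal in both knockouts against the control. It stood at 71.6 ± 7.48% in the CFIm68 KO lines, 63.7 ± 8.96% in the CFIm59 KO lines and 34.4% in the control. The CFIm68 KO shift (log2 -2.32, adjusted p = 5.49e-06) turned in direction with the outermost pair of sites. The CFIm59 KO call (log2 -1.68, adjusted p = 0.0115) was lost with DESeq2, last exon sites alone, no minimum beyond 1 read and without CFIm59 KO line 1. Both knockouts thus lay on the same side of the 1 control library.

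Of 36 other nucleotide supply genes 35 were tested in level. Against the control 6 were lower in the CFIm59 KO lines, or 4 when CFIm59 KO line 1 or line 2 was left out. With both lines kept, 6.87% of all genes were lower. In the CFIm68 KO lines 0 passed, with 8 at an unadjusted p under 0.05 and 1 called lower by DESeq2. PRPS1, which makes the ribose phosphate donor for nucleotides, averaged 195 ± 25.8 CPM in the CFIm68 KO lines, 97.0 ± 14.8 CPM in the CFIm59 KO lines and 223 CPM in the control (adjusted p = 0.000353 in the CFIm59 KO lines). HPRT1, the purine salvage enzyme, averaged 77.2 ± 3.89 CPM in the CFIm59 KO lines against 170.3 CPM in the control (adjusted p = 0.000818), and ADSL, an enzyme of purine synthesis, 91.4 ± 6.11 CPM against 181 CPM (adjusted p = 0.00326). In site use 4 of 25 moved to proximal and 3 to distal in the CFIm68 KO lines, and 0 and 2 in the CFIm59 KO lines, beside the same shares over all pairs. SAMHD1, which breaks down deoxynucleotides, used its distal site for 32.4 ± 0.0503% of reads in the CFIm68 KO lines, 93.8 ± 2.4% in the CFIm59 KO lines and 68.5% in the control (adjusted p = 0.000354 and 0.00271 against the control, the second lost with DESeq2). Its distal use followed the same order of genotypes as RRM2.

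Cell cycle lists were read beside the levels. Of 16 G1/S regulators 1 passed in the CFIm68 KO lines, CDKN1A (log2 1.13, adjusted p = 0.0383, lost without CFIm68 KO line 1 and with DESeq2), and 1 in the CFIm59 KO lines, UHRF1, which reads DNA methylation at the fork (182 ± 30.3 CPM against 76.7 CPM in the control, adjusted p = 0.000745). Of 16 G2/M genes 1 was lower in the CFIm68 KO lines, CDK1, at 131 ± 27.9 CPM against 279.7 CPM in the control (adjusted p = 0.00448), and 1 in the CFIm59 KO lines, BUB1, at 40.5 ± 0.456 CPM against 80.8 CPM (adjusted p = 0.00801, lost with DESeq2). Between the knockouts 0 of these 16 were higher and 4 lower in the CFIm68 KO lines, MKI67, TOP2A, CDK1 and AURKB, or 2 lower without CFIm59 KO line 2. With every line kept, 9.46% of all genes were higher in that comparison and 10.3% lower. Of the G1/S regulators 2 were higher there, CDKN1A (adjusted p = 0.00771) and E2F2 (0.0156), and 1 was lower, UHRF1 (0.000306). The CDKN1A call was lost with DESeq2 and without line 1 of either knockout. That of E2F2 was lost with DESeq2 and without line 2 of either knockout. The AURKB call ended when any 1 of the 4 knockout lines was left out. The median of the G2/M list there was -0.31, against 0.00 over all genes, and that of the 10 members 0.10. The part of cell cycle phase in the levels of PCNA and TYMS was not tested.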

How the data were processed

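Reads were deposited by the authors as raw counts per poly(A) site for 5 libraries, with hg19 positions, strand and a site class. Per the labels' protocols, cDNA was primed with oligo(dT), circularised, cut with BamHI and amplified. The submitters' processing notes name hg19, TopHat2 2.1.0 and deepTools 2.4 without roles. How sites were called, how internal priming was treated and whether positions start at 0 or 1 are not stated in the labels or the file. No molecular identifiers are described, so intervals cover counting error only.

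Counts were summed per gene and tested with edgeR 4.0.16 in R 4.3.3 (quasi-likelihood test, TMM factors, filterByExpr, Benjamini-Hochberg adjustment over all genes, threshold 0.05). DESeq2 1.42.0 was an alternative. Site use took the 2 most read sites of a gene (at least 20 reads on average together and 5 each) with a library term and a site by group term. Single sites were tested against the rest of their gene. All 5 libraries shared 1 estimate of spread, so the lone control was taken to vary like the knockout lines. The members and the gene lists were chosen with earlier results of these data known. All 10 members and their sites of 20 or more reads are named. From each list up to 4 passing genes per comparison, those of smallest adjusted p, could be named, and only some of them are described. No hg19 genome was used, and poly(A) signals came from GENCODE v29 transcripts. Results for 1 further list gene are not reported here.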

Additional observations from a re-analysis of the deposited data

How the results depend on the processing

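Of 278 alternative values for member levels 253 kept their direction and side of the threshold, 8 lost a call, 3 gained one and 14 changed sign, none of the 14 past the threshold. For site use these numbers were 233, 14, 9 and 5 of 261, and for single sites 99, 26, 0 and 0 of 125. Members called in level in the CFIm59 KO against control were 2, and 0 with DESeq2. In site use they were 2 there, 0 with DESeq2 and 1 with the outermost pair of sites. With minimums of 100 and 20 reads, site use calls were 1 in the CFIm68 KO against control and 3 between the knockouts, where fewer genes are tested. With 20 reads per site, single site calls between the knockouts were 8. The RRM2 level in the CFIm59 KO against control was log2 -0.0545 with no filter. PCNA site use with the outermost pair was 1.40 in the CFIm68 KO and 1.43 in the CFIm59 KO against control, where another end is read, and the cause of the other changes was not tested.

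Leaving out 1 line, calls in the CFIm59 KO against control ranged from 0 to 3 in level, 1 to 3 in site use and 0 to 6 in single sites, and between the knockouts from 1 to 2 in level. Levels in the CFIm59 KO against control ranged from -0.0124 to 0.39 in MCM2, -0.33 to 0.14 in MCM5 and -0.0662 to 0.12 in RRM2. In the CFIm68 KO against control they ranged from -0.0112 to 0.26 in MCM3, -0.13 to 0.35 in PCNA, -0.00942 to 0.49 in RRM2 and -0.0823 to 0.00047 in TYMS. Between the knockouts they ranged from -0.11 to 0.30 in MCM2, -0.0264 to 0.44 in MCM5, -0.0127 to 0.23 in MCM6, -0.14 to 0.31 in RRM1 and -0.0281 to 0.47 in RRM2. Site use ranged from -0.10 to 0.44 in MCM3 in the CFIm59 KO against control, and between the knockouts from -0.16 to 0.0264 in PCNA and -0.52 to 0.82 in RRM1.

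Line numbers did not pair the knockout libraries (r = -0.0213 between deviations of same-numbered lines over 14636 genes). With the replicate block, members called between the knockouts were 2 in level, 5 in site use and 13 in single sites, as without it. The control is 1 library, and minor ends with few reads set the loosest values.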
